A study of Mus musculus with 8 samples.

Results

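The mouse chemokine genes were examined in FAIRE-seq peak lists of mammary epithelial cells. The set held every protein-coding gene of the GENCODE annotation (mm10) whose name is Ccl or Cxcl followed by a digit. This gave 35 genes (23 Ccl and 12 Cxcl) of 21951 protein-coding genes. The locus of a gene was its span with 20 kb on each side, and a peak was counted there if it overlapped the locus by at least 1 bp. FAIRE-seq enriches DNA that crosslinked protein does not hold, so a peak marks an accessible chromatin region. EpH4 is a mouse mammary gland epithelial line, and EpRas is its derivative transformed with oncogenic H-Ras. Both lines were cultured for 8 days without or with 1 ng/ml TGF-β3 (TGF-β), with 2 libraries in each of the 4 groups. The medium held 10% serum for EpH4 and 4% for EpRas cells, and EpRas was 1 derivative line. The effects of Ras, of serum and of the history of the line therefore cannot be told apart.

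Chemokines are small secreted proteins that direct the migration of leukocytes through G-protein-coupled receptors. They are named after the spacing of their first cysteines, which are adjacent in the CC family (Ccl) and separated by 1 residue in the CXC family (Cxcl). Most inflammatory chemokine genes lie in clusters that arose by gene duplication, and many are induced through NF-κB. In epithelial cells, *Cxcl1*, *Cxcl2* and *Cxcl5* recruit neutrophils through *Cxcr2*, *Ccl20* recruits *Ccr6*-expressing lymphocytes and dendritic cells, and *Cxcl9* and *Cxcl10* are interferon-induced ligands of *Cxcr3*. Homeostatic chemokines such as *Ccl19*, *Ccl21* and *Cxcl12* place cells in lymphoid tissue and bone marrow.

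The members fell into 4 classes when genes on 1 chromosome were joined across gaps of at most 2 Mb. The Cxcl cluster on chr5 held 7 genes, in a block with *Cxcl5*, *Cxcl3*, *Cxcl15*, *Cxcl1* and *Cxcl2* and a block with *Cxcl9* and *Cxcl10*. The Ccl cluster on chr11 held 11 genes, in a block with *Ccl2*, *Ccl7*, *Ccl11*, *Ccl12*, *Ccl8* and *Ccl1* and a block with *Ccl5*, *Ccl9*, *Ccl6*, *Ccl3* and *Ccl4*. Small groups held 9 genes, namely *Ccl27a*, *Ccl21b*, *Ccl27b*, *Ccl19* and *Ccl21a* on chr4, *Ccl26* and *Ccl24* on chr5, and *Ccl22* and *Ccl17* on chr8. The other 8 genes (*Ccl20*, *Cxcl16*, *Cxcl14*, *Ccl28*, *Cxcl13*, *Cxcl12*, *Cxcl17* and *Ccl25*) were single loci. *Cxcl11* is annotated as a polymorphic pseudogene and was not a member.

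The 8 lists held 10821 to 27337 peaks, and the longest was the first TGF-β-treated EpRas library. The lists carried no read counts, so the depth behind them was unknown, and a site without a peak was not shown to be closed. Promoter peaks, with a midpoint within 2 kb of a transcription start site (TSS), were checked at cell type markers. They were found at 8 of 10 epithelial markers in at least 1 library (1 to 6 per library) and in no library at *Krt19* and *Epcam*. At *Cdh1*, which encodes E-cadherin, 4 of 4 EpH4 and 0 of 4 EpRas libraries had one. They were also found at 4 of 8 mesenchymal markers (1 to 3 per library), at 2 of 8 leukocyte markers (0 to 1 per library) and at 0 of 4 endothelial markers. Over all protein-coding genes, 42.5% had a promoter peak in at least 1 library. The defining leukocyte marker *Ptprc* had no promoter peak in any library, whereas *Cd68* had one in 3 EpRas libraries and *Csf1r* in both TGF-β-treated EpH4 libraries.

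The accessible regions on which the results turn are shown as the bases covered by the peaks of every library that called the region, in mm10, on the plus strand, 5′ to 3′. Capitals mark matches on either strand to the NF-κB consensus decamer, to AP1 (TGANTCA), ETS (CCGGAA), RUNX (TGTGGTT) or CEBP (TTNNGCAA) sequences, and matches that overlap are run together. The first 5 lie in the Cxcl cluster. They are the region 5.214 kb upstream of *Cxcl5* (chr5:90754073-90754257), called in all 8 libraries, the region 15.04 kb upstream of *Cxcl1* (chr5:90876099-90876311), called in 6, and the *Cxcl1* promoter (chr5:90891081-90891226), called in 2 EpH4 libraries, with an adjoining peak in another. They are followed by the region 3.481 kb upstream of *Cxcl2* (chr5:90900264-90900486), called in 7, and the *Cxcl10* promoter (chr5:92348870-92349052), called in 6.
Cxcl5 upstream: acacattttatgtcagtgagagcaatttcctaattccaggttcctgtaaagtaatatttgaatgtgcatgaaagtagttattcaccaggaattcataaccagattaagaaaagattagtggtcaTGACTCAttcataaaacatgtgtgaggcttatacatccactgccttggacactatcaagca
Cxcl1 upstream: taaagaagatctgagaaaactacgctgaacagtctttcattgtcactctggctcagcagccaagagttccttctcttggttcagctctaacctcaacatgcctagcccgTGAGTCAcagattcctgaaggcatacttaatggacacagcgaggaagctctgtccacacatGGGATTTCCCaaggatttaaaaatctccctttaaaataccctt
Cxcl1 promoter: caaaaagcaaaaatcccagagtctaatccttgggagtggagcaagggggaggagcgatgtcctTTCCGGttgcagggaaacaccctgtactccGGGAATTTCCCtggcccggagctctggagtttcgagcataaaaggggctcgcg
Cxcl2 upstream: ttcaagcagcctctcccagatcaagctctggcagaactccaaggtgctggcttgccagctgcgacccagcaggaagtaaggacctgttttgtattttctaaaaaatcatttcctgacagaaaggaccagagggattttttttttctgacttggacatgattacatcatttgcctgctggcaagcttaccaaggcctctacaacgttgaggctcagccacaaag
Cxcl10 promoter: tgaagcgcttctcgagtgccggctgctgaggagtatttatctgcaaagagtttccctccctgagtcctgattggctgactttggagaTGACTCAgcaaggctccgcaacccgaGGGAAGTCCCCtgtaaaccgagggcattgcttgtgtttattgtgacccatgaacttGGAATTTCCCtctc

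The next 5 are the regions of Ccl genes with the clearest patterns of calls. They lie 4.31 kb upstream of *Ccl5* (chr11:83534712-83534994, all 8 libraries), 20.04 kb upstream of *Ccl5* (chr11:83550559-83550656, EpH4 libraries), 22.06 kb downstream of the *Ccl9* TSS (chr11:83556480-83556659, absent from untreated EpH4), 4.908 kb upstream of *Ccl6* (chr11:83597941-83598056, likewise) and 3.306 kb downstream of the *Ccl20* TSS (chr1:83120011-83120216, absent from untreated EpRas).
Ccl5 near upstream: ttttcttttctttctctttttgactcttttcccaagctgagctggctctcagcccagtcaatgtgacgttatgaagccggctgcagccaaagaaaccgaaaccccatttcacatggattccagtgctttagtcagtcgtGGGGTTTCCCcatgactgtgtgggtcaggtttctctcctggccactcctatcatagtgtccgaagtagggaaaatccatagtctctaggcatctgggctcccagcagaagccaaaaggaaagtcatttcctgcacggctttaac
Ccl5 far upstream: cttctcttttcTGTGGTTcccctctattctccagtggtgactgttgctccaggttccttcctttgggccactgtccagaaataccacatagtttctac
Ccl9 downstream: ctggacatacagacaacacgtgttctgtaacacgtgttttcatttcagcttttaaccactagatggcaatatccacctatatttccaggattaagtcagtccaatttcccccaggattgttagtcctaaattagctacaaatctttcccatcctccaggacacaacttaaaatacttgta
Ccl6 upstream: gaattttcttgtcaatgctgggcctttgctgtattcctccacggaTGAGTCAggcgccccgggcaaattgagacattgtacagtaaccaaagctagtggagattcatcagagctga
Ccl20 downstream: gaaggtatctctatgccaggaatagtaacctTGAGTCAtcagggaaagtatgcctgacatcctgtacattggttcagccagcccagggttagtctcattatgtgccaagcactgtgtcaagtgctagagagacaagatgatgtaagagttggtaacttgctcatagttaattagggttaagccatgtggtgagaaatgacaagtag

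A peak was present at 27 of the 35 chemokine loci in at least 1 library (77.1%), beside 71.8% of all protein-coding loci. All 8 libraries had one at 9 loci (25.7%), beside 29.3% of all loci. A promoter peak was called in at least 1 library at 7 of 35 chemokine genes (20.0%), namely *Cxcl1*, *Cxcl10*, *Cxcl16*, *Cxcl17*, *Ccl1*, *Ccl9* and *Ccl25*. The share was 42.5% over all protein-coding genes and 31.3% over the 7787 genes no longer than 10 kb. No chemokine promoter was called in all 8 libraries, beside 10.6% of all promoters. With promoters drawn at 500 bp from the TSS, 4 members had a promoter peak, and the share over all genes was not computed at this distance. A library had peaks at 13 to 23 chemokine loci and at 2 to 5 chemokine promoters.

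**Figure D1:**
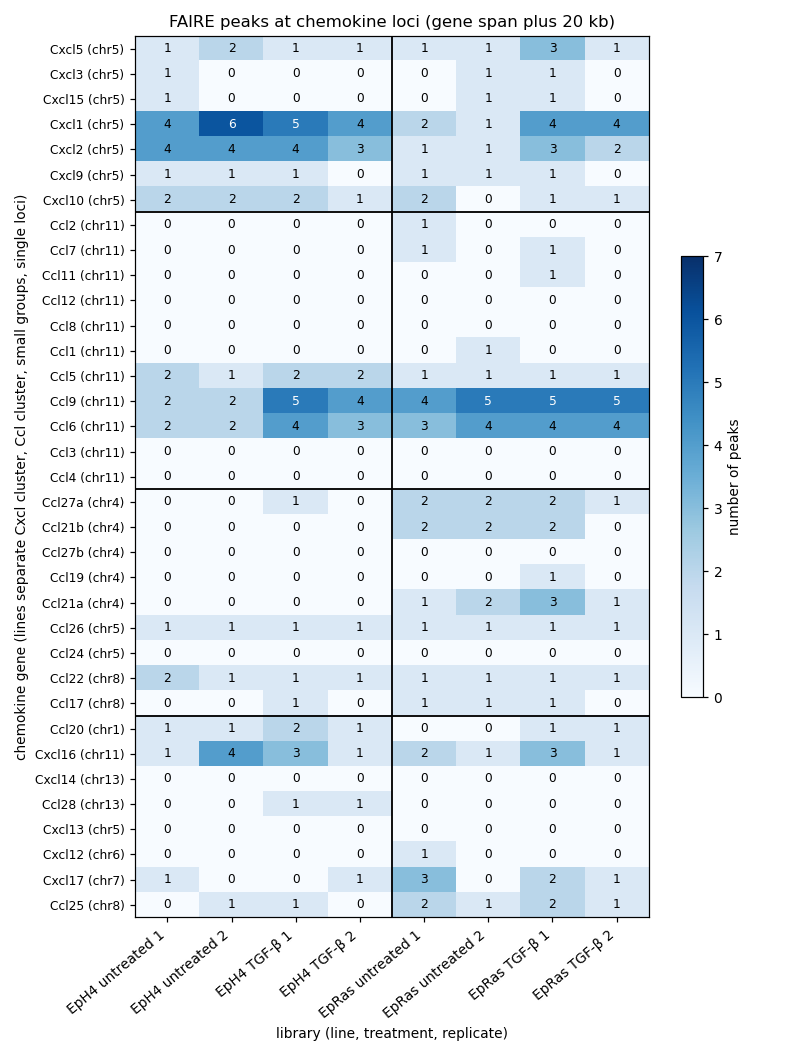
Number of FAIRE peaks at each of the 35 chemokine loci (rows, gene span plus 20 kb) in each of the 8 libraries (columns), with the number printed in each cell and shaded from 0 upwards. Cxcl1, Cxcl2, Ccl9 and Ccl6 had the highest sums over the libraries, 8 loci had none, and the chr4 genes had peaks almost only in EpRas libraries.

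Members of the classes differed in how densely peaks lay around them. Per Mb of locus, counting shared bases once, the Cxcl cluster held 19.4 to 53.4 peaks over the 8 libraries (median 38.8), the Ccl cluster 8.85 to 17.7 (15.5) and the single loci 4.64 to 18.5 (11.6). The small groups held 6.14 to 30.7 (12.3), and all protein-coding loci 5.92 to 14.7 (8.41). The Cxcl cluster was above the single loci in 8 of 8 libraries, and the Ccl cluster was below the single loci in 3. The Cxcl cluster covered 205.9 kb in this count, the Ccl cluster 452.01 kb and the single loci 431.4 kb, so that these densities rested on 4 to 11, 4 to 8 and 2 to 8 peaks per library.

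To compare the lines and the treatments over whole clusters, peaks were counted in the stretch from the first to the last gene of each cluster with 20 kb on each side. The Cxcl stretch (chr5:90739360-92368889, 25 protein-coding genes) held 32 and 34 peaks in untreated EpH4, 36 and 27 in TGF-β-treated EpH4, 22 and 15 in untreated EpRas, and 39 and 22 in TGF-β-treated EpRas libraries. The line groups overlapped through the first TGF-β-treated EpRas library, which had the longest list. EpRas libraries held 24.5 ± 10.2 and EpH4 libraries 32.2 ± 3.86 peaks (SD, n = 4 each, both treatments together). The difference of −7.75 was within the spread of these libraries, which includes that between treatments (two-sided exact permutation test, p = 0.257, and 0.548 when adjusted over 6 cluster tests). Without the first TGF-β-treated EpRas library, named here because it made the overlap, the difference was −12.6. With any other single library left out it was −9.5 to −4.58.

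The lines did not overlap once the length of the lists was taken into account. Per 10000 listed peaks the Cxcl stretch held 25.7 and 26.0 in untreated and 20.1 and 24.9 in TGF-β-treated EpH4, and 12.8 and 10.9 in untreated and 14.3 and 13.1 in TGF-β-treated EpRas libraries. Every EpRas library was below every EpH4 library, at a mean of 12.8 ± 1.40 against 24.2 ± 2.76 (SD, n = 4 each), a ratio of 0.528 (two-sided exact permutation test, p = 0.0286, the lowest that it can give). In lists cut to the 10821 highest-scored peaks the values were 29, 31, 27 and 27 in EpH4 and 10, 10, 13 and 15 in EpRas libraries (exact permutation test, p = 0.0286). Among windows of the same length along the genome, 11.7% had EpRas below EpH4 without overlap per 10000 peaks, and 9% in the lists of equal length. The surroundings moved the same way but less, also without overlap between the lines. The 10 Mb on each side held 45.7 to 49.9 peaks per 10000 in EpH4 and 34.9 to 45.4 in EpRas libraries. The EpRas to EpH4 ratio per 10000 peaks was 0.826 for the 10 Mb on each side and 0.741 for the whole of chr5, which held 7.11 to 7.71% of the peaks of EpH4 and 5.40 to 5.76% of those of EpRas libraries. Scalings to these surroundings were added after the data were seen. Per 1000 peaks in the rest of chr5 the stretch held 29.1 to 34.8 in EpH4 and 20.1 to 26.1 in EpRas libraries, and per 1000 peaks in the 10 Mb on each side 439 to 523 and 293 to 367, without overlap (exact permutation test, p = 0.0286 for each).

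The lower density in EpRas libraries was found both in the blocks of Cxcl genes and between them, a block running from its first to its last gene with 20 kb on each side. Per 10000 peaks both blocks together held 7.12 ± 1.32 peaks in EpH4 and 3.40 ± 0.341 in EpRas libraries, and the rest of the stretch 17.1 ± 1.75 and 9.35 ± 1.08 (SD, n = 4 each), without overlap between the lines in either. The block from *Cxcl5* to *Cxcl2* held 5.29 ± 0.960 and 2.45 ± 0.598, again without overlap. The block with *Cxcl9* and *Cxcl10* held 1.82 ± 0.681 and 0.949 ± 0.534, and its lines overlapped. In unscaled counts both blocks together held 10, 11, 10 and 7 peaks in EpH4 and 6, 4, 10 and 6 in EpRas libraries, a difference of −3.00 within the spread (exact permutation test, p = 0.114). TGF-β-treated libraries held 5.25 more peaks in the Cxcl stretch than untreated ones (exact permutation test, p = 0.457), and this effect differed by 13.5 between the lines (exact permutation of line labels, p = 0.333, smallest possible 0.0556).

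**Figure D2:**
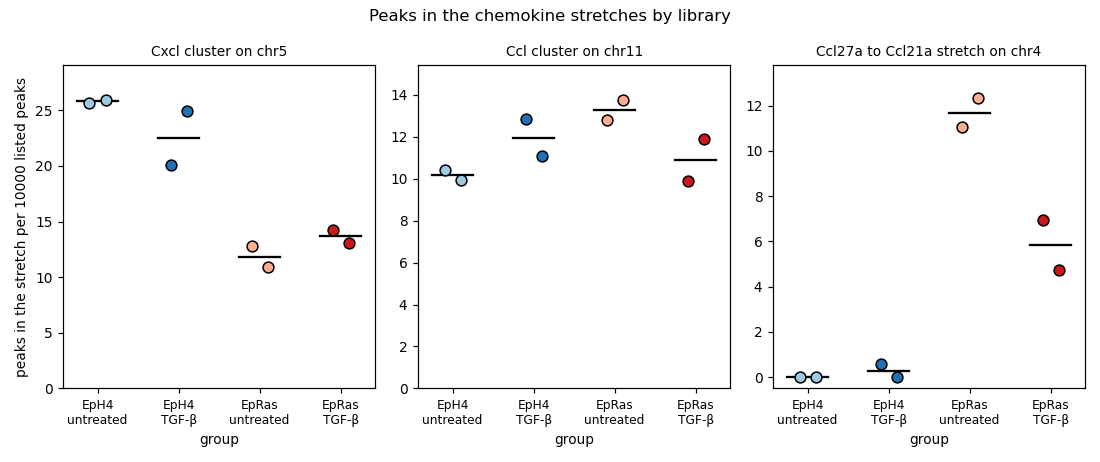
Peaks in the 3 chemokine stretches per 10000 listed peaks (vertical axis, separate scale for each stretch) for each library (points), with the mean of each group of 2 (line). The EpRas libraries lay between 10.9 and 14.3 in the Cxcl stretch, below all EpH4 libraries, overlapped with EpH4 in the Ccl stretch, and lay at 4.75 to 12.3 in the chr4 stretch, where EpH4 libraries lay at 0 to 0.558.

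*Cxcl1* and *Cxcl2* encode neutrophil attractants. The *Cxcl1* locus held 4 and 6 peaks in untreated EpH4, 5 and 4 in TGF-β-treated EpH4, 2 and 1 in untreated EpRas, and 4 and 4 in TGF-β-treated EpRas libraries. Untreated EpRas was lowest, and TGF-β-treated EpRas reached the lower end of EpH4. The *Cxcl2* locus, which shares the peaks between the genes, held 4 and 4, 4 and 3, 1 and 1, and 3 and 2 in the same order. The difference between EpRas and EpH4 was −2.00 at both loci (exact permutation test, p = 0.171 for *Cxcl1* and 0.0571 for *Cxcl2*, adjusted p = 0.86 and 0.785 over 15756 loci). In the lists of equal length *Cxcl2*, *Cxcl5* and *Cxcl10* were lower in every EpRas than in every EpH4 library. These were 3 of the 23 members with a peak in those lists, beside 2.26% of all loci in this direction and 2.22% in the other. At *Cxcl5* the full lists went the other way, with a difference between EpRas and EpH4 of 0.25 and overlap.

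Single regions of this block differed in their pattern of calls. The regions 3.481 and 2.957 kb upstream of *Cxcl2* were called in 7 and 6 libraries. The first was missing from the second untreated EpRas library, and the other from the first untreated EpRas and the second TGF-β-treated EpH4 library. The region 15.04 kb upstream of *Cxcl1* was missing from the first untreated EpH4 and the second untreated EpRas library. Its peaks had a mean score percentile of 77.7 within their lists, among the 5 highest at chemokine loci. A region 9.336 kb upstream of *Cxcl1* was called in both untreated EpH4 libraries and no other, as were 0.424% of all 37230 merged regions. It was singled out after its values were seen. The *Cxcl1* promoter had a peak in 3 EpH4 libraries, both untreated ones and the second treated one, and in 0 EpRas libraries, at percentiles of 1.84 to 31.5.

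*Cxcl5*, whose product also attracts neutrophils, had 1 region called in all 8 libraries, 5.214 kb upstream of its TSS. Its score percentile was 60.9 to 90.5 in EpH4 and 12.3 to 52.7 in EpRas libraries, without overlap, beside 1.41% of the 4259 regions called in all 8 libraries. The *Cxcl5* locus held 1 to 3 peaks per library. *Cxcl3*, a further neutrophil attractant, and *Cxcl15*, a lung chemokine, shared 1 region in the *Cxcl3* intron, called in the first untreated EpH4, the second untreated EpRas and the first TGF-β-treated EpRas library.

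Of the interferon-induced genes, *Cxcl10* had the chemokine promoter with most calls. Its promoter region was called in all 4 EpH4 libraries, at score percentiles of 58.1 to 92.3, and in 2 EpRas libraries, the first untreated and the second treated one, at 13.9 and 20.5. The *Cxcl10* locus held 2, 2, 2 and 1 peaks in EpH4 and 2, 0, 1 and 1 in EpRas libraries, and these values overlapped. *Cxcl9* had no promoter peak, and its locus held 0 to 1 peak in both lines.

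**Figure D3:**
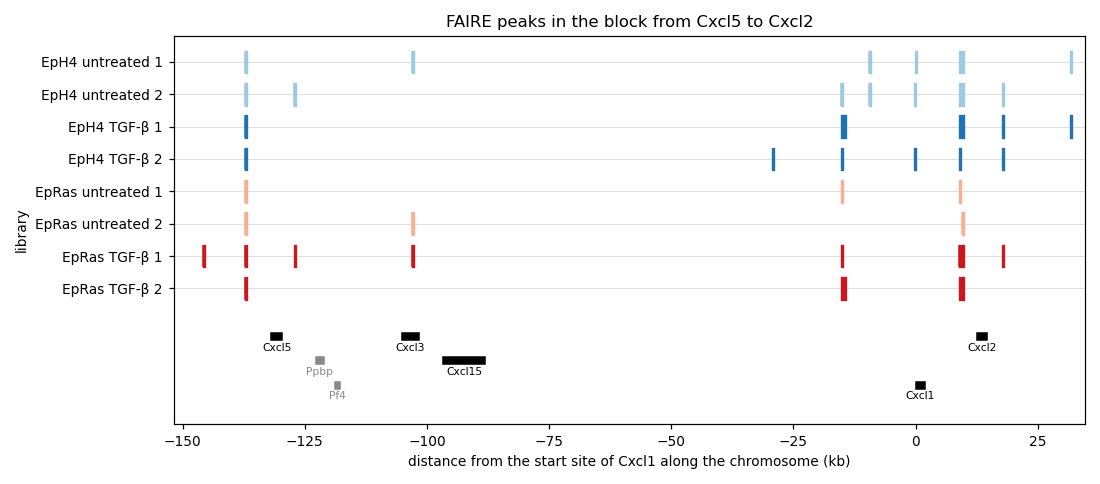
Peaks (coloured marks, drawn wider than the smallest peaks for visibility) of the 8 libraries (rows) in the block from Cxcl5 to Cxcl2, by distance from the Cxcl1 start site in kb, with gene spans below (members black, other protein-coding genes grey). The mark in every row at the left is the region upstream of Cxcl5, and the marks at the right surround Cxcl1 and Cxcl2.

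The Ccl cluster did not separate the lines. Its stretch (chr11:82015571-83684683, 38 protein-coding genes) held 13 and 13 peaks in untreated EpH4, 23 and 12 in TGF-β-treated EpH4, 22 and 19 in untreated EpRas, and 27 and 20 in TGF-β-treated EpRas libraries. Only the first TGF-β-treated EpH4 library reached the range of EpRas. EpRas libraries held 22 ± 3.56 and EpH4 libraries 15.2 ± 5.19 peaks (SD, n = 4 each), a difference of 6.75 within the spread (two-sided exact permutation test, p = 0.114, and 0.548 when adjusted over 6 cluster tests). Without that EpH4 library, named here because it made the overlap, the difference was 9.33. With any other single library left out it was 5.08 to 7.75. With list length taken into account the lines overlapped, at 9.93 to 12.8 peaks per 10000 in EpH4 and 9.88 to 13.8 in EpRas libraries (exact permutation test, p = 0.4). The TGF-β difference was 3.75 (exact permutation test, p = 0.429), and this effect differed by −1.5 between the lines (exact permutation of line labels, p = 0.889).

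Within the cluster, the peaks were unevenly placed. The block of *Ccl2*, *Ccl7*, *Ccl11*, *Ccl12*, *Ccl8* and *Ccl1*, which hold the monocyte chemoattractant and eotaxin genes, had no peak in EpH4 libraries. In EpRas libraries it had 3 regions, each called in 1 library, and the second TGF-β-treated library had none of them. The *Ccl2* locus, which encodes the main monocyte attractant, had 1 peak in the first untreated EpRas library and 0 in the other 7. The regions lay 2.465 kb upstream of *Ccl2*, 9.422 kb downstream of the *Ccl11* TSS and at the *Ccl1* promoter. No peak was called at *Ccl12* or *Ccl8* in any library, nor at the macrophage inflammatory protein genes *Ccl3* and *Ccl4* in the other block.

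All other peaks at Ccl cluster members lay around *Ccl5*, *Ccl9* and *Ccl6*. The *Ccl9* locus, whose product attracts myeloid cells through *Ccr1*, held 2 and 2 peaks in untreated EpH4, 5 and 4 in TGF-β-treated EpH4, 4 and 5 in untreated EpRas, and 5 and 5 in TGF-β-treated EpRas libraries. Untreated EpH4 was below the 6 other libraries. The *Ccl6* locus, with which it shares 3 regions, held 2 and 2, 4 and 3, 3 and 4, and 4 and 4. The TGF-β difference was 1.5 for *Ccl9* and 1.00 for *Ccl6*, and the line difference was the same (exact permutation test, p = 0.257 in each case, adjusted p = 1 over 15756 loci). Whether the TGF-β effect at these loci differed between the lines could not be decided. The exact permutation of line labels cannot give a p under 0.0556.

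The regions behind these counts included a region 22.06 kb downstream of the *Ccl9* TSS, in the *Ccl9* locus alone. Another, 4.908 kb upstream of *Ccl6*, lay in the loci of *Ccl9* and *Ccl6*. Both regions were absent from the untreated EpH4 libraries and called in the other 6, a pattern of 0.693% of all regions. They were picked out for it after the values were seen. Their score percentiles in those 6 libraries were 5.37 to 80.7 and 3.03 to 50.6. The *Ccl9* promoter region, 1.349 kb downstream of the TSS in an intron, also counted at *Ccl9* and *Ccl6*. It was called in the first TGF-β-treated EpH4 library and in all 4 EpRas libraries, at percentiles of 30.6 to 61.4. Regions 14.66 kb downstream of the *Ccl9* TSS and 13.48 kb upstream of *Ccl6* were called in all 8 libraries, with mean percentiles of 82.8 and 73.7.

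*Ccl5*, which encodes a T-cell and monocyte attractant, had 2 contrasting regions. The near one, 4.31 kb upstream, was called in all 8 libraries at a mean percentile of 86.8. The far one, 20.04 kb upstream (chr11:83550345-83550765, intergenic), was called in all 4 EpH4 libraries and no EpRas library. It had low scores, with percentiles of 19.5 and 5.15 in untreated and 29.9 and 0.213 in TGF-β-treated EpH4 libraries. The *Ccl5* locus held 2, 1, 2 and 2 peaks in EpH4 and 1 in each EpRas library. In the second untreated EpH4 library the peak of the far region lay just beyond the edge of the locus.

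**Figure D4:**
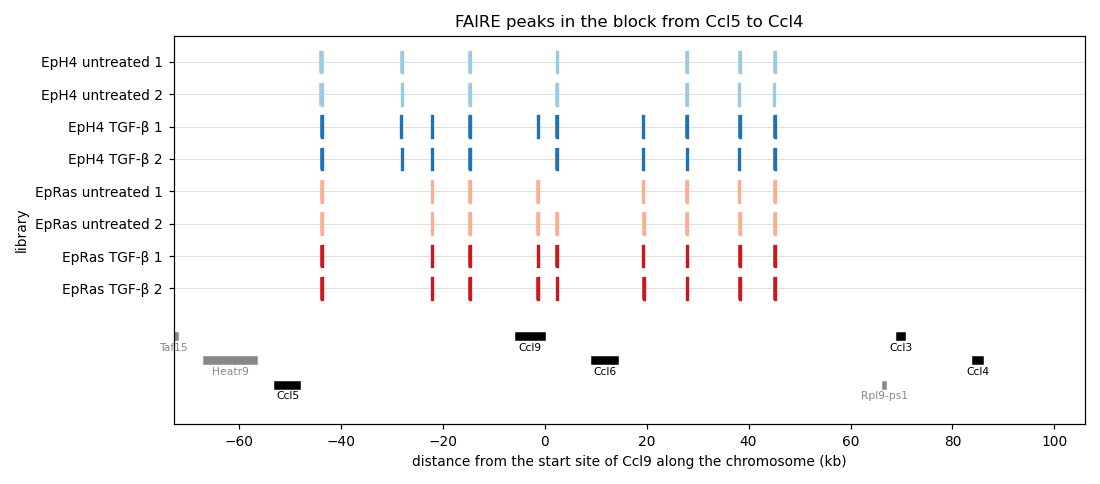
Peaks (coloured marks) of the 8 libraries (rows) in the block from Ccl5 to Ccl4, by distance from the Ccl9 start site in kb, with gene spans below (members black, other protein-coding genes grey). Columns of marks in every row are the regions called in all 8 libraries, the gaps in the top rows are the regions absent from untreated EpH4 libraries, and no mark lies near Ccl3 or Ccl4.

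Of the 3 stretches compared, the one on chr4 from *Ccl27a* to *Ccl21a* had the largest contrast between the lines (chr4:41749467-42793993, 27 protein-coding genes). *Ccl19* and *Ccl21* are ligands of *Ccr7*, and *Ccl27* is a skin chemokine that acts through *Ccr10*. The stretch held 0 and 0 peaks in untreated EpH4, 1 and 0 in TGF-β-treated EpH4, 19 and 17 in untreated EpRas, and 19 and 8 in TGF-β-treated EpRas libraries. All EpRas libraries were above all EpH4 libraries, also in lists of equal length, with 0, 0, 1 and 0 against 9, 10, 3 and 2. The stretch was singled out after these values were seen, so it carries no test. Among windows of this length along the genome, 13.4% had EpRas above EpH4 without overlap. The EpRas to EpH4 ratio per 10000 peaks was 1.16 for the 10 Mb on each side and 1.21 for the whole of chr4.

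The sequence of this stretch is repeated in the genome. Of its windows of 36 bases, the length to which the reads had been trimmed, 4.75% occurred once in the genome. It held 26 accessible regions, of which 24 had under 50% of such windows occurring once and 19 had none. The median number of copies of the windows of a region was 1 to 22, with a median of 19. How reads with several matches were placed was not stated, so these peaks cannot be assigned to 1 copy. Of the 7 regions called in all EpRas and no EpH4 libraries, 5 had no window that occurred once. The exception with unique sequence throughout was at the *Il11ra1* promoter, 9.755 kb from the *Ccl27a* TSS (chr4:41760295-41760620). It was called at score percentiles of 20.5 to 75.7. A region 18.29 kb upstream of *Ccl21a* (chr4:42792059-42792506), in a coding exon of *Gm12394*, had 8.72% of windows occurring once.

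At the level of genes, *Ccl21a* was the only member whose lines did not overlap in the full lists. It held 0 peaks in each EpH4 library, 1 and 2 in untreated EpRas, and 3 and 1 in TGF-β-treated EpRas libraries (exact permutation test, p = 0.0286, adjusted p = 0.593 over 15756 loci). This was 1 of 27 members with a peak, beside 4.27% of all loci with EpRas above and 0.552% with EpRas below EpH4, so the members did not stand out from the background. The lines overlapped at *Ccl21a* in lists of equal length, with a higher score limit and with 10 kb flanks. With 10 kb flanks *Ccl27a* was the only member whose lines did not overlap. *Ccl27a* held 0, 0, 1 and 0 peaks in EpH4 and 2, 2, 2 and 1 in EpRas libraries, and *Ccl21b* held 0 in each EpH4 and 2, 2, 2 and 0 in EpRas libraries. *Ccl19* had 1 peak, in the first TGF-β-treated EpRas library, and *Ccl27b* had none. In the loci of *Ccl27b*, *Ccl21b*, *Ccl19*, *Ccl21a* and *Ccl27a*, 0.0712, 0.121, 21.4, 34.7 and 50.9% of the windows of 36 bases occurred once. The share was at least 80% in 26 of the 35 loci (median 92.9%).

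**Figure D5:**
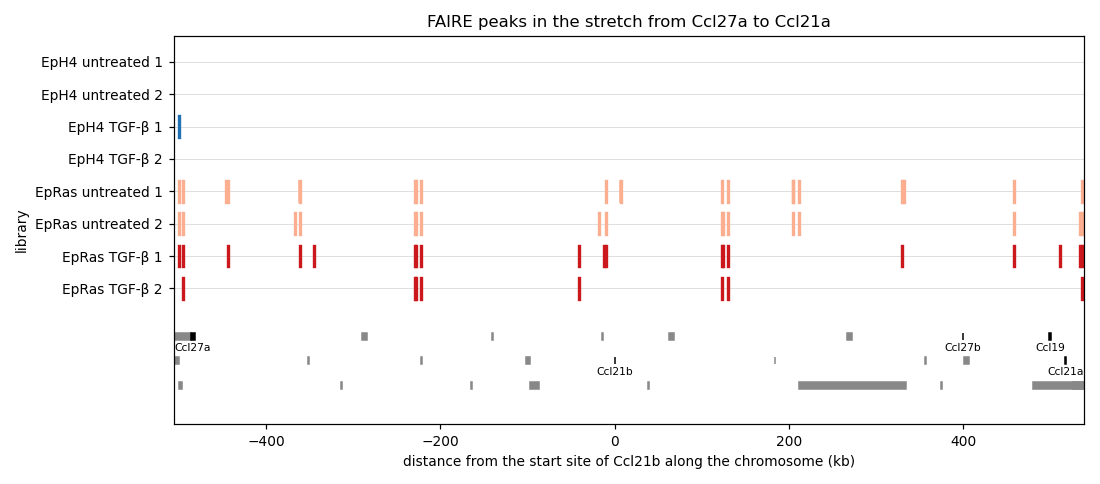
Peaks (coloured marks) of the 8 libraries (rows) in the stretch from Ccl27a to Ccl21a, by distance from the Ccl21b start site in kb, with gene spans below (members black and named, other protein-coding genes grey). The EpH4 rows hold 1 mark in all, and the EpRas rows hold 8 to 19 peaks each.

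No member separated treated from untreated libraries in number of peaks, beside 0.394% of all loci with TGF-β above and 0.0444% with TGF-β below. Over all 15756 loci with a peak, 0 passed adjustment in either contrast (exact permutation test with Benjamini-Hochberg adjustment). Unadjusted p-values were under 0.05 at 759 loci for the line and at 69 for the treatment. With 4 against 4 libraries the test cannot give a p under 0.0286.

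The other small groups varied less. *Ccl26*, an eotaxin gene, had 1 peak in every library, at the promoter of *Hip1* 18.12 kb from the *Ccl26* TSS, with the highest mean score percentile at any chemokine locus (93.9). Its neighbour *Ccl24* had none. *Ccl22* had a region 21.61 kb downstream of its TSS, called in all 8 libraries at a mean percentile of 83.6. *Ccl17*, which like *Ccl22* binds *Ccr4*, had a region 2.54 kb downstream of its TSS in the first TGF-β-treated EpH4 library and in 3 EpRas libraries, both untreated ones and the first treated one.

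Among the single loci, *Ccl20* had 1 region whose calls followed the treatment in EpRas cells. The region 3.306 kb downstream of its TSS was called in all 4 EpH4 libraries, in neither untreated EpRas library and in both TGF-β-treated ones. This pattern held for 0.392% of all regions, and the region was picked out for it after the values were seen. Its score percentiles were 83.9 and 44.5 in untreated EpH4, 28.6 and 5.35 in TGF-β-treated EpH4, and 31.5 and 34.7 in TGF-β-treated EpRas libraries. The *Ccl20* locus held 1, 1, 2 and 1 peaks in EpH4 and 0, 0, 1 and 1 in EpRas libraries (line difference −0.75, exact permutation test, p = 0.286).

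*Cxcl16*, a transmembrane chemokine that binds *Cxcr6*, held 1 and 4 peaks in untreated EpH4, 3 and 1 in TGF-β-treated EpH4, 2 and 1 in untreated EpRas, and 3 and 1 in TGF-β-treated EpRas libraries. The region called in all 8 was at the promoter of *Med11*. The *Cxcl16* promoter itself, shared with *Zmynd15*, had a peak in 4 libraries, 1 of each group. *Ccl25*, which attracts thymocytes and gut T cells through *Ccr9*, had a promoter peak in 5 libraries, the second untreated and the first treated EpH4 and 3 EpRas libraries. Another region at its locus, at an *Elavl1* promoter 11.4 kb upstream, was called in TGF-β-treated EpRas cells only, in both of their libraries, as were 4.21% of all regions. *Cxcl17*, a mucosal chemokine, had a promoter peak in 3 libraries. *Ccl28*, a mucosal chemokine expressed in mammary epithelium, had 1 peak in each TGF-β-treated EpH4 library, in different places, and 0 elsewhere. *Cxcl12* had 1 peak, in the first untreated EpRas library, and *Cxcl13* and *Cxcl14* had none.

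The peaks at chemokine loci formed 56 of the 37230 merged regions. Calls in 1 library made up 17 of them (30.4%) and calls in all 8 made up 7 (12.5%), beside 31.6% and 11.4% of all regions. EpRas-only regions numbered 2 (3.57%), both in the chr4 stretch, and EpH4-only regions 1 (1.79%), the far region of *Ccl5*, beside 1.98% and 0.752% of all regions. No region was called only with TGF-β or only without it in all 4 libraries, beside 0.32% and 0.0188%. Promoters of any gene held 22 of the 56 regions (39.3%), beside 31.7% of all regions, but 13 of these belonged to other genes only. The midpoint lay between genes in 28 regions, in an intron in 19, in an untranslated region in 6, in a coding exon in 2 and in another exon in 1.

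Among sequence features, the NF-κB consensus stood at a higher share of chemokine regions than of all regions. It occurred in the 300 bp around the midpoint of 13 of 56 chemokine regions (23.2%), beside 7.52% of all regions, and in 6 of 34 distal ones (17.6%), beside 6.53%. AP1 occurred in 20 (35.7%, beside 41.4%), ETS in 6 (10.7%, beside 11.5%), RUNX in 5 (8.93%, beside 11.5%) and CEBP in 6 (10.7%, beside 13.4%). These counts were not tested, and regions at duplicated genes are not independent of each other. In the sequences above, the NF-κB match stands in the *Cxcl1* and *Cxcl10* promoters, upstream of *Cxcl1* and at the near region of *Ccl5*. RefSeq promoters (GRCm38.p6, 250 bases before to 50 after the start) were matched by gene name for 25 of the 35 members. For *Ccl21b* the matched promoter (chr4:42172870-42173169) lay outside the locus examined here and held no match to these motifs. Of the 25, 8 held the NF-κB consensus (*Ccl1*, *Ccl20*, *Ccl27a*, *Ccl9*, *Cxcl1*, *Cxcl10*, *Cxcl2* and *Cxcl3*), beside 9.55% of all genes. A peak within 2 kb of the TSS was called for *Ccl1*, *Ccl9*, *Cxcl1* and *Cxcl10* of these 8. The *Ccl1* and *Ccl9* peaks lay 1.818 and 1.349 kb downstream of the TSS, outside the RefSeq promoters that held the match. Of the same 25 members, AP1 was found at 6, *Ccl27a* and *Ccl27b* among them, also a higher share than over all genes (8.97%). CEBP was found at 4 (beside 12.2%), ETS at 3 (16.7%) and RUNX at 1 (6.09%).

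Other genes of the pathway were counted in the same way. Promoter peaks were called at 2 of 22 chemokine receptor genes in at least 1 library, *Cxcr3* in 3 EpRas libraries and *Ackr3*, a scavenging receptor for *Cxcl12*, in 7 libraries. Of 4 further chemokine genes (*Pf4*, *Ppbp*, *Xcl1* and *Cx3cl1*), *Cx3cl1* had a promoter peak, in 3 libraries. Of 10 genes for NF-κB subunits and regulators, 8 had a promoter peak, 3 of them in all 8 libraries, with 5 to 8 per library. Over all protein-coding genes, 42.5% had a promoter peak in at least 1 library and 10.6% in all 8. The *Nfkbie* locus, which encodes an inhibitor of NF-κB, held 2 peaks in each untreated and 4, 3, 4 and 4 in the treated libraries, the only gene of these 3 lists whose groups did not overlap in a contrast (beside 0.394% of all loci in this direction).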

How the data were processed

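FAIRE-seq peak lists of 8 libraries were analysed, 2 for each of 4 groups given by the sample labels. Per the methods of the study, the authors sequenced on an Ion Proton instrument, trimmed reads to 36 bases, aligned them with Bowtie2 to mm10 and called peaks with MACS2 2.0.9. The files hold 1 list per library, and whether replicates were combined for the calls was not stated. The submitters' processing notes name the same tools. The deposited files give each peak a position and a score, whose meaning was not given in the sources used here. The deposited score served only to rank or filter peaks. The use of a control, of duplicates and of reads with several matches was not stated.

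The 35 genes were chosen by name, and they, the marker and pathway lists and the sequence motifs were chosen with earlier results of these data known. Genes with a peak within 2 kb of their own start sites, nearest to regions that separated the groups or were called in all 8 libraries, or with the 5 highest score percentiles were described singly, and the others by name and range. Genes and start sites were those of GENCODE vM21. Peaks were merged into regions across libraries where they overlapped. A region separated 2 sets of 4 libraries if it was called in all of 1 set and none of the other. Means were compared by two-sided exact permutation tests over libraries (70 assignments), with the line labels permuted within treatment for the difference of TGF-β effects (36 assignments). P-values over all loci were adjusted by the Benjamini-Hochberg method. The study describes the FAIRE-seq replicates as biological ones, and p-values measure the spread between these libraries. In the line contrast this spread includes that between treatments, and in the treatment contrast that between lines. Alternatives were equal list lengths, a higher score limit, other flanks, midpoint overlap, scaling to list length, a replicate block and leaving out each library. Python 3.11.15, numpy 2.4.6, pandas 2.3.3 and scipy 1.17.1 were used, and the counting and tests were tested on simulated data.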

Additional observations from a re-analysis of the deposited data

How the results depend on the processing

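Of 199 alternative values, 172 did not reverse direction and kept their side of the threshold of 0.05, or stayed near the main value. A difference of 0 was counted among these, as for TGF-β in the Ccl stretch in lists of equal length (0, beside 3.75). No main cluster test had passed the threshold. With all libraries, exact permutation tests under the replicate block or of the difference of TGF-β effects cannot give a p under 0.0556. Their side of the threshold was therefore fixed in advance. The line difference of the Cxcl stretch was −7.75 in the full lists and passed the threshold in lists of equal length (−16.5), per 10000 listed peaks (−11.4), and, in alternatives added after the data were seen, per 1000 peaks of the rest of chr5 (−9.70) and of the neighbouring 10 Mb (−176). With 1 library left out it was −12.6 to −4.58, and that of the Ccl stretch 5.08 to 9.33. The TGF-β difference had the opposite sign per 10000 peaks in the Ccl stretch (−0.313) and the Cxcl stretch (−0.736), and per 1000 neighbouring peaks in the latter (−39.8). It was 1.58 to 6.58 and 1.67 to 8.25 with 1 library left out. The difference of the TGF-β effects in the Ccl stretch turned to 1.5 with the higher score limit and was −7.00 to 4.00 with 1 library left out, positive without the first TGF-β-treated EpH4 library (4.00) or the second TGF-β-treated EpRas library (2.00). In the Cxcl stretch it was 5.00 to 22. The number of members whose lines did not overlap was 3 in lists of equal length, 0 with the higher score limit, 5 with 50 kb flanks and 1 to 3 with 1 library left out. Promoter members numbered 4 at 500 bp from the TSS, and 6 to 7 with 1 library left out. Regions that separated the lines numbered 1 with the higher score limit, 1 with 10 kb flanks and 3 to 4 with 1 library left out. Beyond the alternatives' own construction, the cause was not tested.

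No pairing by replicate number was seen in the calls, where the deviations of same-numbered libraries correlated at −0.055 to 0.002. A shared difference in list length would not show in this correlation. Under a replicate block the line differences of −7.75 and 6.75 had p = 0.222 and 0.111, and the TGF-β differences of 5.25 and 3.75 had p = 0.444 and 0.389 for the Cxcl and Ccl stretches (exact permutation test, smallest possible p 0.0556). This test cannot pass a threshold of 0.05, so it could not have changed a call. The lists hold no read counts, and the unknown depth limits every statement about absent peaks.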
